A study of Arabidopsis thaliana with 64 samples.

Results

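The 10 nuclear genes described here encode enzymes that carry carbon from 2-oxoglutarate to oxaloacetate in the mitochondrial tricarboxylic acid (TCA) cycle of Arabidopsis thaliana. They were chosen by locus and not by a cutoff on their values, though earlier results of these data were known. They are 10 of the 32833 genes in the count tables: 2 genes each for the E1 and E2 subunits of 2-oxoglutarate dehydrogenase, 3 for succinyl-CoA ligase, FUM1 for fumarase, and mMDH1 and mMDH2 for mitochondrial malate dehydrogenase. All 10 passed the filter on low counts in every comparison.

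Polyadenylated RNA of pooled whole seedlings was sequenced in 64 libraries to ask how steroid-induced transcription factors change the transcriptome. Each seedling line carried 1 of 4 fusions of a transcription factor to the steroid-binding domain of the glucocorticoid receptor (GR), driven by the constitutive 35S promoter, and such a fusion enters the nucleus when dexamethasone (Dex) is given. The fusions were GR-CHA19 (lines 5, 7, 8 and 9), GR-ENAP1 (lines 1, 2, 4 and 5), GR-LBD16 (lines 3, 8, 11 and 12) and GR-WRI3 (lines 8, 10, 17 and 21). CHA19 is a chromatin remodeler, ENAP1 a partner of the ethylene signal protein EIN2, LBD16 a lateral root regulator and WRI3 a member of the WRINKLED family of fatty acid synthesis regulators. Seedlings of every line grew in the dark for 5 days on half-strength Murashige and Skoog medium and were then moved to 10 µM Dex or mock plates for 24 hours, with 2 replicates per line and treatment and 1 plate per replicate. No line without a GR fusion was among the samples, so an effect of Dex itself cannot be told apart from an effect of the fusions.

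The dehydrogenase complex oxidizes and decarboxylates 2-oxoglutarate, with E1 removing the carboxyl group and E2 passing the succinyl group to coenzyme A. Succinyl-CoA ligase, built of an alpha and a beta subunit, then releases succinate while making a nucleoside triphosphate. Succinate dehydrogenase, whose genes are treated here among the other TCA genes, makes fumarate, fumarase hydrates it to malate, and malate dehydrogenase oxidizes malate to oxaloacetate. In seedlings kept in the dark, sugars run low and genes induced by carbon starvation are switched on.

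The genes lie on 5 chromosomes, and the positions given here are those of the RefSeq annotation of TAIR10.1, while the count tables carry locus names alone. The E1 genes are AT3G55410 (chr3:20541269-20546053, plus strand) and AT5G65750 (chr5:26303673-26308237, plus strand), and the E2 genes are AT5G55070 (chr5:22347211-22351168, plus strand) and AT4G26910 (chr4:13519811-13523405, minus strand). The alpha subunits of succinyl-CoA ligase are SCS-a1 (AT5G08300, chr5:2667361-2669923, plus strand) and SCS-a2 (AT5G23250, chr5:7830318-7832843, plus strand), and the beta subunit is SCS-B (AT2G20420, chr2:8805342-8808171, plus strand). FUM1 is AT2G47510 (chr2:19498229-19502488, plus strand), mMDH1 is AT1G53240 (chr1:19854615-19857146, minus strand) and mMDH2 is AT3G15020 (chr3:5055741-5058249, plus strand). The coding sequences of the pairs were 78.29% identical for E1, 84.26% for E2, 85.96% for the ligase alpha subunits and 84.02% for mMDH. No window of 100 exon bases, the read length, of any of the 10 genes occurred elsewhere in the genome. Strand was not kept in these libraries, and the exons of mMDH2, AT4G26910 and AT5G65750 share 277, 57 and 18 bases with the exons of a neighbour, so reads there can belong to either gene.

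The 250 bases before the annotated start of each gene were searched on both strands for TGGGCC and TGGGCT, both forms of the site II element known from promoters of Arabidopsis genes for ribosomal and mitochondrial proteins, for the telo box AAACCCTA, the G-box CACGTG and the AW box, the element that WRINKLED1 binds. TGGGCC was found upstream of 4 of the 10 genes, AT5G65750, AT5G55070, SCS-a2 and mMDH1, against 13.65% of 27443 upstream regions of the same length. TGGGCT was found upstream of 2 (AT5G65750 and mMDH2) against 12.33%, the AW box upstream of 1 (AT5G65750) against 9.3%, and the telo box and G-box upstream of 0 against 4.49% and 6.49%. The upstream sequences of the gene with the widest absolute range, of the E2 pair, whose members vary very differently, and of the gene with the most elements are shown from RefSeq TAIR10.1, 5′ to 3′ on the strand of the gene, with capitals marking matches on either strand (GGCCCA and AGCCCA are the reverse forms of the site II elements, and the 14 capitals from CTTCG in AT5G65750 are the AW box).
mMDH1, chr1:19857147-19857396, minus strand: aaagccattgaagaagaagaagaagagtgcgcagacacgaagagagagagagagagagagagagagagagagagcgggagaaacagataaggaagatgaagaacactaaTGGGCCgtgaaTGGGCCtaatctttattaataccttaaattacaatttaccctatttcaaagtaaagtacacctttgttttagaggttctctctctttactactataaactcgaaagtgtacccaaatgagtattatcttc
AT5G55070, chr5:22346961-22347210, plus strand: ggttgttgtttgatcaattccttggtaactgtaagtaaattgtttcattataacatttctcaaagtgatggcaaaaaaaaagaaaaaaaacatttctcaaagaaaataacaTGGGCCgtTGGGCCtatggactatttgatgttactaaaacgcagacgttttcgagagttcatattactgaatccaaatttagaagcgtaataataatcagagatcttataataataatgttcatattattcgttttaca
AT4G26910, chr4:13523406-13523655, minus strand: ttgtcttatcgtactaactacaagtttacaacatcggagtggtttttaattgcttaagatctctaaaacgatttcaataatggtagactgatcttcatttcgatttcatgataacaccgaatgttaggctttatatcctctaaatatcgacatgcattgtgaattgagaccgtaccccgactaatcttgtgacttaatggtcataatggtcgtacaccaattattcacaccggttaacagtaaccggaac
AT5G65750, chr5:26303423-26303672, plus strand: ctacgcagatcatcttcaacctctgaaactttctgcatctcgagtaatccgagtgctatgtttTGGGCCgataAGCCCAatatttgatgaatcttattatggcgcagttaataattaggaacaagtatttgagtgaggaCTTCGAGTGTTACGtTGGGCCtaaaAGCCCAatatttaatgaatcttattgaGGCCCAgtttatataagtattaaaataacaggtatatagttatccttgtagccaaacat

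Library totals ranged from 2059928 to 7968970 counts with a median of 5292625, and levels are given as CPM, the counts of a gene scaled to equal library totals. Each fusion partner was measured higher in its own lines than in any other line, with medians of 124 CPM for CHA19, 212 CPM for ENAP1, 139 CPM for LBD16 and 119 CPM for WRI3 in their mock libraries, and the counts do not separate transgene from native transcript. 9 libraries stood apart from the others of their GR fusion, with a median Spearman correlation under 0.9672, and 5 of these were lowest, between 0.7695 and 0.9193: GR-CHA19 line 7 Dex replicate 1, GR-ENAP1 line 1 mock replicate 1, GR-ENAP1 line 2 Dex replicate 1, GR-LBD16 line 3 mock replicate 1 and GR-WRI3 line 8 Dex replicate 1. The first of these is the library that the study left out of its own model. Results are given with all libraries and, where they move, without these 5. PORA, a marker of etiolated tissue, was detected in every library, from 26.9 to 1932 CPM, and the green tissue genes LHCB1.3, LHCB2.1 and RBCS1A summed to between 749.8 and 14010 CPM. In whole seedlings, fewer cells of a type and less RNA per cell cannot be told apart.

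The malate dehydrogenase genes covered the widest ranges of the 10, and the E2 gene AT4G26910 the narrowest. mMDH1 ranged 17.7-fold over the 64 libraries, from 34.4 to 608 CPM with a median of 81.9 CPM. Its lowest library was GR-CHA19 line 5 Dex replicate 1 and its highest GR-LBD16 line 3 mock replicate 1. mMDH2, the low isoform, ranged 23.8-fold from 3.77 to 89.9 CPM, where its lowest value rests on only 19 counts. Its smallest count, 15, was in another library. FUM1 ranged 7.05-fold, from 51.9 to 366 CPM around a median of 86.0 CPM. AT4G26910 ranged 2.17-fold, from 32.2 to 69.9 CPM around a median of 39.4 CPM. Without the 5 lowest-correlation libraries these ranges were 7.47-fold for mMDH1, 8.05-fold for mMDH2, 3.54-fold for FUM1 and 1.58-fold for AT4G26910. The SD of the log2 level of mMDH1 was 0.94 and larger than that of 97.3% of the 12293 genes at or above the level minimum of 10 CPM used for this ranking, mMDH2 stood at 96.1%, FUM1 at 87.5%, and AT4G26910 at 23.0%.

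AT5G65750 ranged 10.0-fold over the 64 libraries and SCS-a2 7.54-fold, against 2.67-fold and 3.32-fold without the 5. AT3G55410 ranged from 55.6 to 291 CPM (median 81.3) and AT5G65750 from 30.9 to 309 CPM (median 44.4), both E1. AT5G55070, the other E2 gene, ranged from 35.3 to 218 CPM (median 48.2). Each of these was highest in GR-LBD16 line 3 mock replicate 1. SCS-a1 ranged from 22.4 to 110.5 CPM (median 36.2), SCS-a2 from 8.95 to 67.4 CPM (median 16.2) and SCS-B from 62.0 to 231 CPM (median 80.1). Together the 10 genes took 0.0371% to 0.234% of a library's counts, and at most 0.105% outside the 5 libraries.

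**Figure D1:**
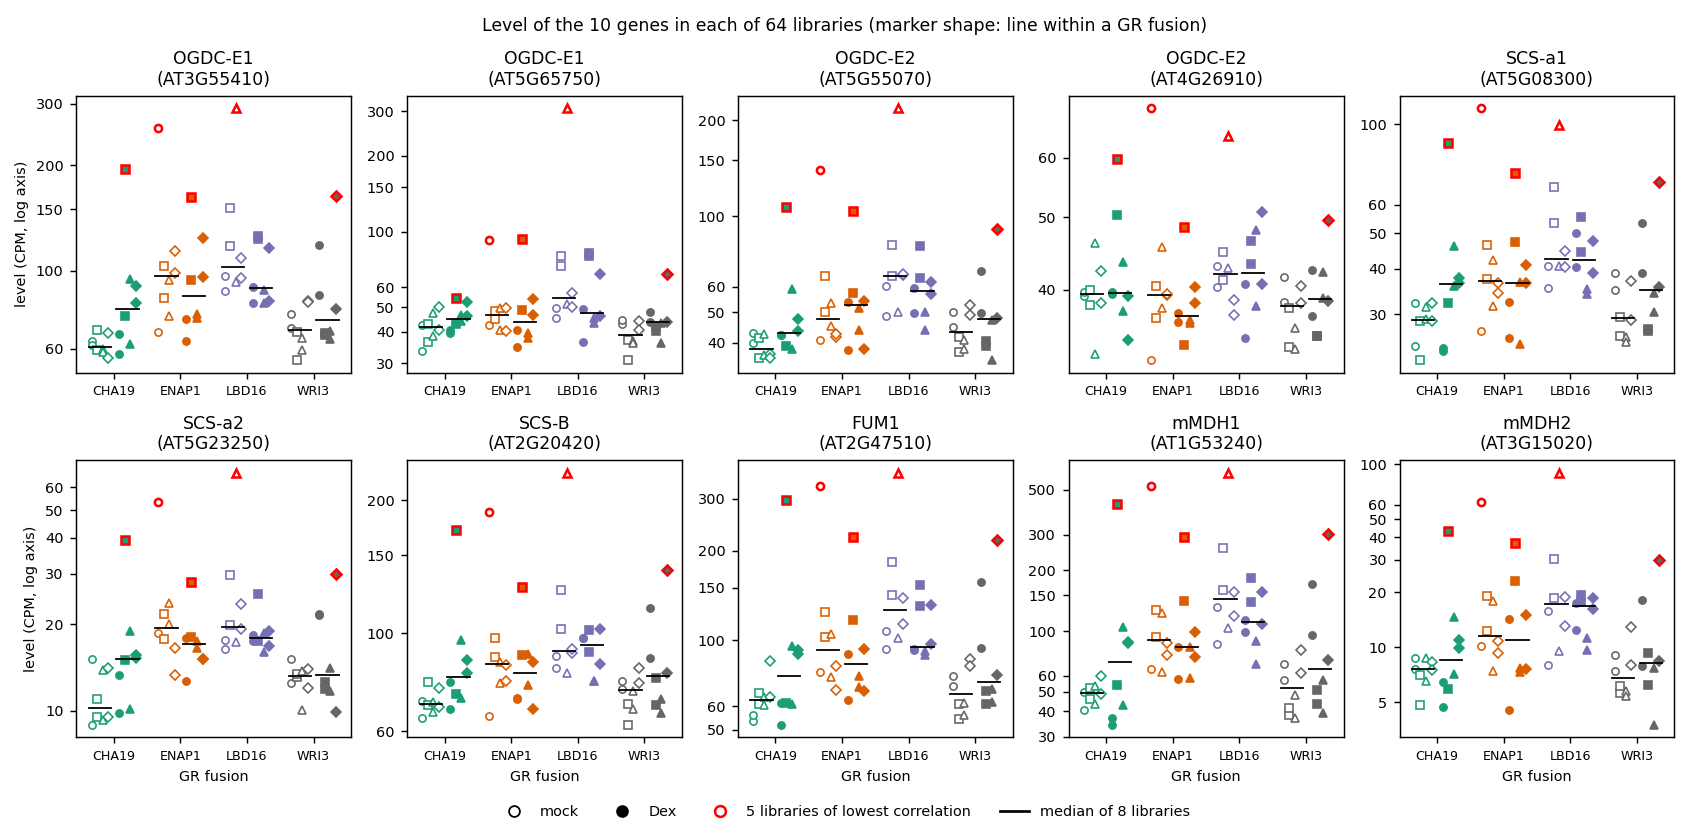
Level of each gene in every library, in CPM on a log axis that differs between panels, by GR fusion, with open symbols for mock, filled symbols for Dex, marker shape for the line and a bar for the median of 8 libraries. The red-edged points are the 5 libraries of lowest correlation, where mMDH1 lies between 293 and 608 CPM, while the panel of AT4G26910 spans only 32.2 to 69.9 CPM.

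Divided by exon length, the median level was highest for mMDH1, at 47.6 CPM per kilobase, followed by SCS-B (44.2) and FUM1 (37.1). SCS-a1 (23.9), AT5G55070 (21.96), AT3G55410 (21.1) and AT4G26910 (19.4) formed a middle group in the same unit. AT5G65750 (12.5), SCS-a2 (8.61) and mMDH2 (5.42) were lowest. Within this order several neighbours crossed: mMDH1 was above SCS-B in 35 of 64 libraries, SCS-a1 above AT5G55070 in 44, AT5G55070 above AT3G55410 in 43, and AT3G55410 above AT4G26910 in 43. FUM1 was above SCS-a1 in all 64 libraries, AT4G26910 above AT5G65750 in 59 and AT5G65750 above SCS-a2 in 62.

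Each duplicated pair kept a major isoform in most libraries, and the pairs differed in how far the balance moved. The mMDH1 share of mMDH transcripts per exon length was between 82.3% and 92.8% (median 88.9%), and mMDH1 was the higher in all 64 libraries. SCS-a1 held 63.8% to 81.7% of the ligase alpha pair (median 74.1%), also the higher in all 64. AT3G55410 held a median of 62.2% of the E1 pair, from 46.4% in GR-LBD16 line 3 mock replicate 1, the single library where AT5G65750 was the higher, to 76.6% in GR-CHA19 line 7 Dex replicate 1. The E2 pair was the most even, with AT5G55070 at a median of 53.1% and the higher in 48 of 64 libraries. Its share ranged from 41.9% to 76.0%, and to 64.7% without the 5 libraries, in which it lay between 62.4% and 76.0%.

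**Figure D2:**
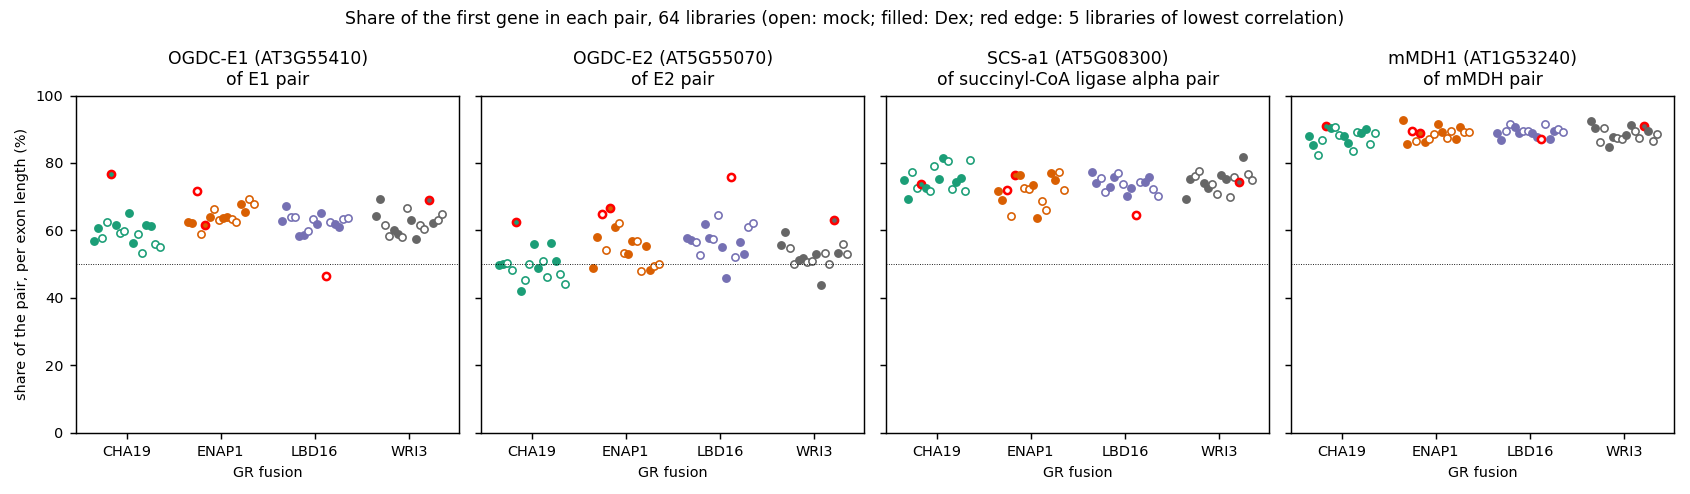
Share of the first gene in each isoform pair per exon length, in percent from 0 to 100, for each of 64 libraries by GR fusion, with open points for mock, filled points for Dex, red edges for the 5 libraries of lowest correlation and a dotted line at equal shares. The mMDH1 share stays between 82.3% and 92.8%, whereas AT5G55070 of the E2 pair crosses the dotted line.

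In the mock libraries, which ask whether the uninduced lines of the 4 GR fusions differ, 7 of the 10 genes differed among the fusions, and the GR-ENAP1 and GR-LBD16 lines were the higher. The largest differences were in mMDH1 and mMDH2, while AT4G26910 was nearly level. The background is high: 38.4% of the 19303 genes tested passed the same threshold (edgeR quasi-likelihood F-test over 16 line sums, Benjamini-Hochberg adjusted p under 0.05). The median gene moved by at most 0.03 on the log2 scale against GR-CHA19. The scaling factors (TMM) draw the typical gene towards no change, so that value does not measure a shift over all genes. GR fusion, and any batch of growth or sequencing that went with it, cannot be told apart.

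mMDH1 measured 45.4, 48.9, 49.0 and 53.4 CPM in the mock sums of GR-CHA19 lines 5, 7, 8 and 9, and 60.8, 40.05, 41.8 and 71.3 CPM in those of GR-WRI3 lines 10, 17, 21 and 8. It measured 404, 109.0, 90.5 and 81.4 CPM in GR-ENAP1 lines 1, 2, 4 and 5, and 110.2, 191, 377 and 136 CPM in GR-LBD16 lines 11, 12, 3 and 8. Such a sum weighs the replicates by depth. In GR-ENAP1 line 1 mock, replicate 1 had a library total of 7571782 and mMDH1 at 524 CPM. Replicate 2 had a total of 2669391 and mMDH1 at 64.8 CPM. Every GR-ENAP1 and GR-LBD16 line was above every GR-CHA19 and GR-WRI3 line, and the highest line of each, GR-ENAP1 line 1 and GR-LBD16 line 3, holds one of the 5 lowest-correlation libraries. Against GR-CHA19 the log2 difference was 1.85 in GR-LBD16, 1.59 in GR-ENAP1 and 0.08 in GR-WRI3 (adjusted p = 0.00685 over the 4 fusions). The mean over lines was 204 ± 121 CPM in GR-LBD16, 171 ± 156 in GR-ENAP1, 53.5 ± 15.1 in GR-WRI3 and 49.2 ± 3.25 in GR-CHA19 (SD, n = 4 lines). Without the 5 libraries it was 86.4 ± 18.4 CPM in GR-ENAP1 and 135 ± 39.9 CPM in GR-LBD16, and the call was kept. GR-ENAP1 line 1 then measured 64.8 CPM, below GR-WRI3 line 8 at 71.3 CPM, so that the lines of these fusions overlapped.

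FUM1 measured 54.8 to 72.7 CPM in the 4 GR-CHA19 lines and 57.1 to 84.3 CPM in the GR-WRI3 lines. It measured 75.4 to 265 CPM in the GR-ENAP1 lines and 100.3 to 245 CPM in the GR-LBD16 lines, so that GR-LBD16 lay above both lower groups and GR-ENAP1 overlapped GR-WRI3. Without the 5 libraries its lines ran from 75.4 to 112.8 CPM in GR-ENAP1, where the mean over lines went from 135.6 to 88.8 CPM, and from 100.3 to 156.0 CPM in GR-LBD16. Its log2 differences against GR-CHA19 were 0.90 for GR-ENAP1, 1.10 for GR-LBD16 and 0.06 for GR-WRI3 (edgeR adjusted p = 0.0187). mMDH2 had log2 differences of 1.34, 1.60 and -0.01 in the same order (adjusted p = 0.0187), and its mean over lines went from 21.5 to 11.96 CPM in GR-ENAP1 and from 25.9 to 14.97 CPM in GR-LBD16 without the 5 libraries. AT3G55410 had 0.81, 0.89 and 0.14 (adjusted p = 0.0161). SCS-a2 (0.93, 0.99 and 0.13, adjusted p = 0.0196) and SCS-a1 (0.64, 0.69 and 0.08, adjusted p = 0.0479) also passed, as did AT5G65750 (0.21, 0.95 and -0.12, adjusted p = 0.0414), which was highest in GR-LBD16, at 91.9 ± 67.3 CPM over lines and 57.0 ± 12.4 CPM without line 3 mock replicate 1 (SD, n = 4). AT5G55070 (adjusted p = 0.053), SCS-B (0.0881) and AT4G26910 (0.742) did not pass. AT4G26910 measured 45.0 ± 10.12 CPM in GR-ENAP1, 44.4 ± 7.02 in GR-LBD16, 39.6 ± 0.402 in GR-CHA19 and 37.2 ± 2.62 in GR-WRI3 (SD, n = 4 lines). Without the 5 libraries AT5G55070 passed as well, which made 8 genes, against 44.7% of all genes. Leaving out each of the 16 lines in turn gave 5 to 9, with 9 without GR-ENAP1 line 1 (47.1% of all genes) and 5 without GR-LBD16 line 3 (33.3%).

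**Figure D3:**
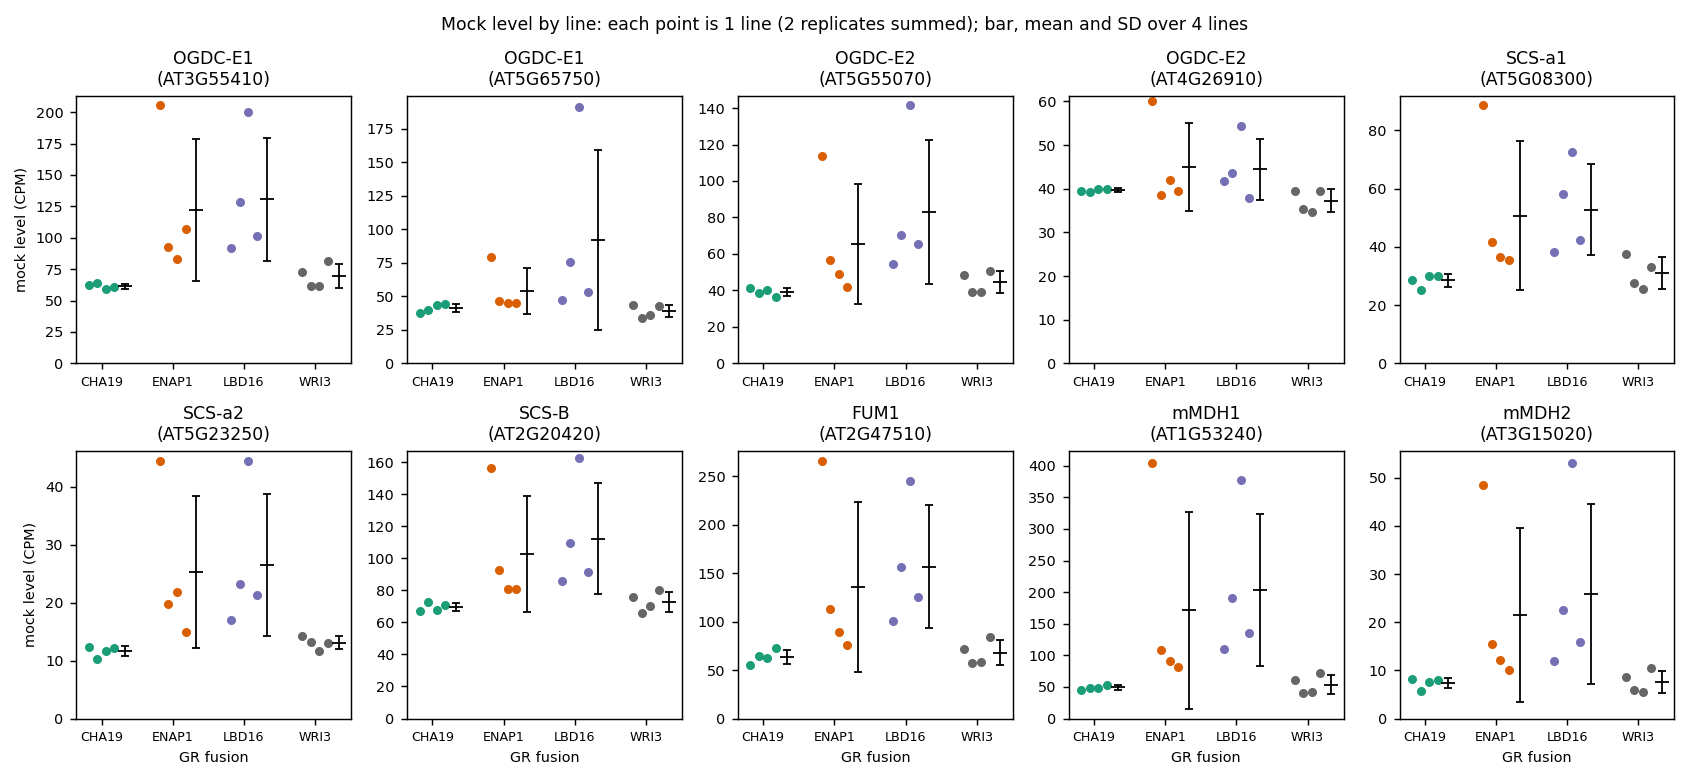
Mock level of each gene in CPM by GR fusion, where each point is 1 line with its 2 replicates summed and the black bar gives the mean and SD over 4 lines. The GR-ENAP1 and GR-LBD16 points of mMDH1 all lie above those of GR-CHA19 and GR-WRI3, although GR-ENAP1 line 1 is at 64.8 CPM, below GR-WRI3 line 8, without its low-correlation library, while the points of AT4G26910 overlap among all 4 fusions.

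Dark-starvation and tissue markers differed among the fusions in the same mock libraries. DIN6, DIN10 and SEN1, dark-inducible genes, summed to a median of 6616 CPM in GR-LBD16, 8498 in GR-ENAP1, 10970 in GR-WRI3 and 11230 in GR-CHA19. PORA had medians of 743.5, 363.7, 84.8 and 51.8 CPM in that order, where the GR-ENAP1 median was 183.2 CPM without its low-correlation library. PYK10, a root gene, had medians of 1667, 1384, 702.7 and 640.9 CPM, and the green tissue genes of 10750, 8239, 5255 and 6164 CPM. The seed genes CRA1, SESA1 and OLEO1 summed to medians of 104.3, 6.2, 6.88 and 10.9 CPM. The part of these differences in the mock levels of the 10 genes was not tested.

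Dex against mock, the comparison that asks what release of each factor did, moved none of the 10 genes past the threshold in any of the 4 GR fusions. With all libraries the 10 log2 fold changes were positive in GR-CHA19 and GR-WRI3 and negative in GR-ENAP1 and GR-LBD16. Without the 5 libraries 4 of the 10 signs turned in GR-ENAP1 (mMDH1, SCS-B, SCS-a1 and AT5G55070) and 2 in GR-LBD16 (mMDH2 and AT4G26910). By line, 9 of the 10 genes in GR-ENAP1 were higher with Dex in 2 of 4 lines. The single low-correlation libraries sit on the Dex side in GR-CHA19 and GR-WRI3 and on the mock side in GR-LBD16, and GR-ENAP1 has one on each side.

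In GR-CHA19, 0 of 10 genes passed against 0% of all genes by edgeR, with 3 of 10 against 14% at an unadjusted p under 0.05. DESeq2 also called 0 of 10. Its share of all genes is not given, here or for the DESeq2 counts below, so those counts stand without a background. mMDH1 measured 40.4 to 59.8 CPM in the 8 mock libraries (median 49.3) and 34.4 to 425 CPM in the 8 Dex libraries (median 70.6), so that the groups overlapped. Its log2 fold change was 0.73 ± 0.31 (SE, adjusted p = 0.352). AT3G55410 had the lowest p, at 0.42 ± 0.15 (SE, adjusted p = 0.347), and its lowest and highest values were 56.4 and 67.7 CPM in mock and 57.9 and 195 CPM in Dex. The fold changes of the 10 genes ran from 0.04 for AT4G26910 to that of mMDH1, with a median of 0.395 against 0.016 over all genes. By line, mMDH1 ran from -0.33 in line 5 to 2.1 in line 7. Without line 7 Dex replicate 1 it was 0.24 (edgeR adjusted p = 0.562, with 0.000966 to 0.811 over all alternatives). The negative binomial model of the study's type (glm.nb) gave 8 of 10 genes higher in Dex, against 31.3% of all genes called in that model. Unlike the study's own fit, it kept line 7 Dex replicate 1, and glm.nb was not run without that library.

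In GR-ENAP1, 0 of 10 genes passed against 0% of all genes by edgeR, 0 of 10 against 1.81% at an unadjusted p under 0.05, 0 by DESeq2, and 0 by glm.nb against 1.58%. mMDH1 measured 63.0 to 524 CPM in mock (median 90.4) and 57.75 to 293 CPM in Dex (median 83.2), with full overlap. The fold changes lay between -0.36 for mMDH2 and -0.06 for AT5G65750, and the largest in units of its SE was that of SCS-a2, at -0.32 ± 0.17 (SE, adjusted p = 1). Line 1, with its mock library apart, and line 2, with its Dex library apart, were at opposite ends for mMDH1, at -1.85 and 0.88. Without both libraries mMDH1 was at 0.05.

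In GR-LBD16, 0 of 10 genes passed against 0% of all genes by edgeR, with 0 of 10 against 6.31% at an unadjusted p under 0.05, and 0 by DESeq2. mMDH1 measured 86.7 to 608 CPM in mock (median 143.8) and 68.9 to 183 CPM in Dex (median 110.8), and the groups overlapped. Its log2 fold change was -0.62 ± 0.29 (SE, adjusted p = 0.621), and FUM1 had -0.42 ± 0.21 (adjusted p = 0.621). AT4G26910 was at -0.01 ± 0.10. By line, mMDH1 lay between -2.07 in line 3 and -0.06 in line 8. Without line 3 mock replicate 1 it was -0.20 (edgeR adjusted p = 0.769, with 0.000191 to 0.98 over all alternatives). The glm.nb model called 3 of 10 genes, AT5G65750, FUM1 and mMDH1, lower in Dex, against 13% of all genes.

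In GR-WRI3, 0 of 10 genes passed against 0.0273% of all genes by edgeR, with 5 of 10 against 15.5% at an unadjusted p under 0.05, and 0 by DESeq2. mMDH1 measured 37.1 to 80.8 CPM in mock (median 52.5) and 39.3 to 304 CPM in Dex (median 64.5), and the groups overlapped. Its log2 fold change was 0.68 ± 0.23 (SE, adjusted p = 0.301), with positive values in 4 of 4 lines, from 0.17 in line 21 to 1.33 in line 8. FUM1 was at 0.43 ± 0.17 (adjusted p = 0.301) and also positive in 4 of 4 lines. Without line 8 Dex replicate 1 mMDH1 was at 0.36 (edgeR adjusted p = 0.464, with 5.96e-09 to 0.653 over all alternatives). The glm.nb model called 6 of 10 genes higher in Dex, against 25.9% of all genes.

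**Figure D4:**
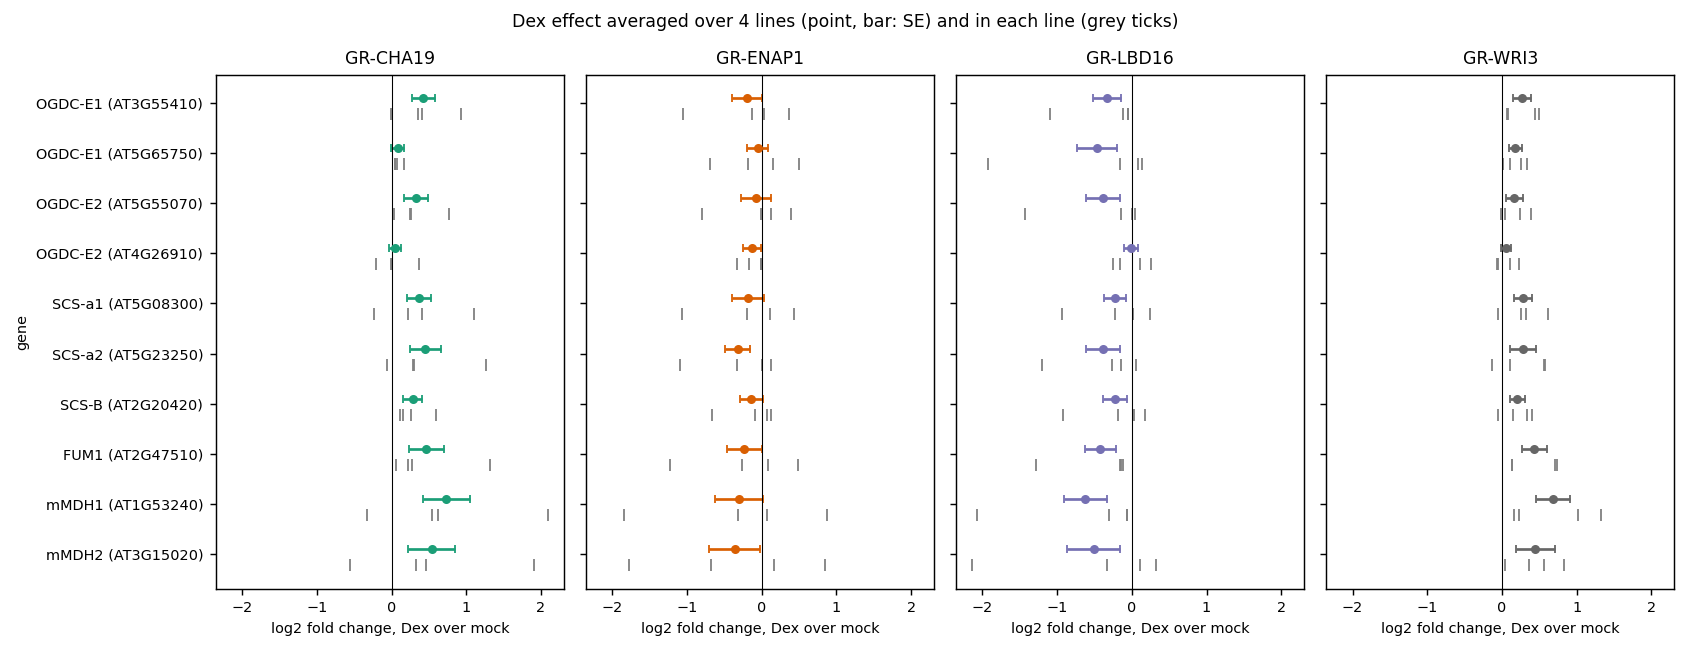
Log2 fold change of Dex over mock for each gene in each GR fusion, where the coloured point is the average over 4 lines with its SE and the grey ticks are the 4 lines. All points lie right of 0 in GR-CHA19 and GR-WRI3 and left of 0 in GR-ENAP1 and GR-LBD16 with all libraries, where 4 and 2 signs turn without the 5 libraries, and the farthest ticks of mMDH1 are 2.1 in GR-CHA19 line 7, -1.85 in GR-ENAP1 line 1 and -2.07 in GR-LBD16 line 3.

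The call in 3 of these comparisons turned on which replicate of 1 line was kept. With the other replicate of GR-CHA19 line 7 Dex left out, so that the low-correlation library stood alone and was assumed to vary like the others, edgeR called 8 of the 10 genes and 45.1% of all genes. The same step gave 9 of 10 (44.5% of all genes) in GR-LBD16 without line 3 mock replicate 2, and 9 of 10 (25.4%) in GR-WRI3 without line 8 Dex replicate 2. The p-values of the Dex, line and interaction tests measure the spread between plates of seedlings. Those of the mock comparison, made on line sums, measure the spread between lines.

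Whether the Dex effect itself differed among the 4 GR fusions was tested in 1 fit of all 64 libraries. By edgeR 0 of 10 genes passed against 0% of all genes, while 6 of 10 against 14% did so at an unadjusted p under 0.05, and DESeq2 called 0. The lowest p was that of mMDH1 (edgeR adjusted p = 0.293). Averaged over the 16 lines, Dex gave log2 fold changes between -0.07 for AT5G65750 and 0.11 for mMDH1, with 0 of 10 genes passing against 0% of all genes, 0 against 6.58% at an unadjusted p under 0.05 and 0 by DESeq2.

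Among the lines of a fusion, averaged over treatments, mMDH1 in GR-WRI3 was the single call. There 1 of 10 genes passed against 4.81% of all genes, with 6 of 10 against 28.3% at an unadjusted p under 0.05. DESeq2 called 2, and its share of all genes is not given here. mMDH1 averaged 129.7 CPM in line 8 (62.1 to 304 CPM in its 4 libraries), 97.8 in line 10 (56.9 to 170.1), 45.4 in line 21 (37.1 to 57.0) and 43.7 in line 17 (38.4 to 51.3), with an edgeR adjusted p of 0.0491. Lines 8 and 10 were the higher, with line 10 just overlapping line 21. The call was lost in 13 of 16 fits that each left out 1 library, while 4 genes passed without line 8 Dex replicate 1 (13.1% of all genes) and 9 without replicate 2 (39.8%). In GR-CHA19, GR-ENAP1 and GR-LBD16, edgeR and DESeq2 called 0 of 10 genes, against 0.00547%, 0.0378% and 0.0321% of all genes by edgeR. At an unadjusted p under 0.05 it was also 0 of 10 in these, against 7.56%, 9.33% and 4.93% of all genes. Without the 5 libraries 4 genes passed in GR-WRI3 (mMDH1, FUM1, AT3G55410 and SCS-a1), 4 in GR-LBD16 (mMDH1, FUM1, AT3G55410 and AT5G65750), 1 in GR-CHA19 (FUM1) and 1 in GR-ENAP1 (AT3G55410), against 13.1%, 7.79%, 5.4% and 3.59% of all genes. With the other replicate of the low-correlation library left out instead, 7 genes passed in GR-CHA19 (without line 7 Dex replicate 2), 8 in GR-ENAP1 (line 1 mock replicate 2) and 9 in GR-LBD16 (line 3 mock replicate 2), against 42.4%, 29% and 42.6% of all genes. The line by treatment interaction called 0 of 10 genes in each fusion by edgeR, against 0% of all genes in every fusion. DESeq2 also called 0 of 10 in each, with no share of all genes given here. At an unadjusted p under 0.05 edgeR gave 0 of 10, against 2.31% for GR-CHA19, 5.12% for GR-ENAP1, 2.38% for GR-LBD16 and 2.65% for GR-WRI3. Those same left-out replicates gave 8, 9 and 9 genes for the interaction (35.2%, 35% and 47.7% of all genes), and leaving out GR-WRI3 line 8 Dex replicate 2 gave 2 (5.4%).

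Within their fusion, the 10 genes were at their highest together in the 5 lowest-correlation libraries, which belong to all 4 fusions and to both treatments. All 5 are replicate 1. In each of the 5, each of the 10 genes was above every other library of that fusion outside the 5. These libraries were picked for low correlation over all genes, and how many of all genes did the same was not counted. mMDH1 measured 608 CPM in GR-LBD16 line 3 mock replicate 1, where the other replicate of that line and treatment had 103.6 CPM. It measured 425 CPM in GR-CHA19 line 7 Dex replicate 1 (other replicate 54.1), 524 CPM in GR-ENAP1 line 1 mock replicate 1 (64.8), 304 CPM in GR-WRI3 line 8 Dex replicate 1 (72.0) and 293 CPM in GR-ENAP1 line 2 Dex replicate 1 (141.4). Each gene was set against the median of the fusion's remaining libraries. mMDH1 was 3.52 to 8.57 times that median, mMDH2 3.55 to 5.92 times and FUM1 2.79 to 4.82 times. AT5G55070 was 2.04 to 3.62 times that median and AT4G26910, its partner isoform, 1.29 to 1.86 times. Of 12293 genes, 97.7% to 98.9% had a smaller ratio than mMDH1 and 65.4% to 79.8% a smaller ratio than AT4G26910. The E1 genes did not move alike: AT5G65750 was 6.16 times the median in GR-LBD16 line 3 mock replicate 1, its highest ratio, and 1.28 times in GR-CHA19 line 7 Dex replicate 1, its lowest. In these 2 libraries 98.5% and 58.6% of all genes compared had a smaller ratio.

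The summed starvation markers DIN6, DIN10 and SEN1 moved opposite to the genes. They summed to 818 to 4366 CPM in the 5 libraries and to 3218 to 12880 CPM (median 9511) in the other 59. Over the 64 libraries, centred within each fusion, the mean log2 level of the 10 genes had a Pearson correlation of -0.952 with the log2 of that sum, and of -0.813 over the 59. These values describe libraries that share lines, and within a library all genes share the same pooled seedlings and the same total. By gene, the correlation ran from -0.538 for AT4G26910 to -0.947 for AT5G55070 over the 64 libraries, and AT4G26910 alone was positive over the 59, at 0.232. PYK10 gave 0.736 and PORA 0.56 over the 64 libraries, and the green tissue genes -0.36, with 0.802, 0.842 and 0.499 over the 59. GR-LBD16 line 3 mock replicate 1 differed from the rest of the 5 in its markers, with PORA at 78.7 CPM against 1056 to 1932 CPM, the lowest green tissue sum of all libraries (749.8 CPM) and the highest seed sum (409.5 CPM). The part of these marker differences in the levels of the 10 genes was not tested.

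**Figure D5:**
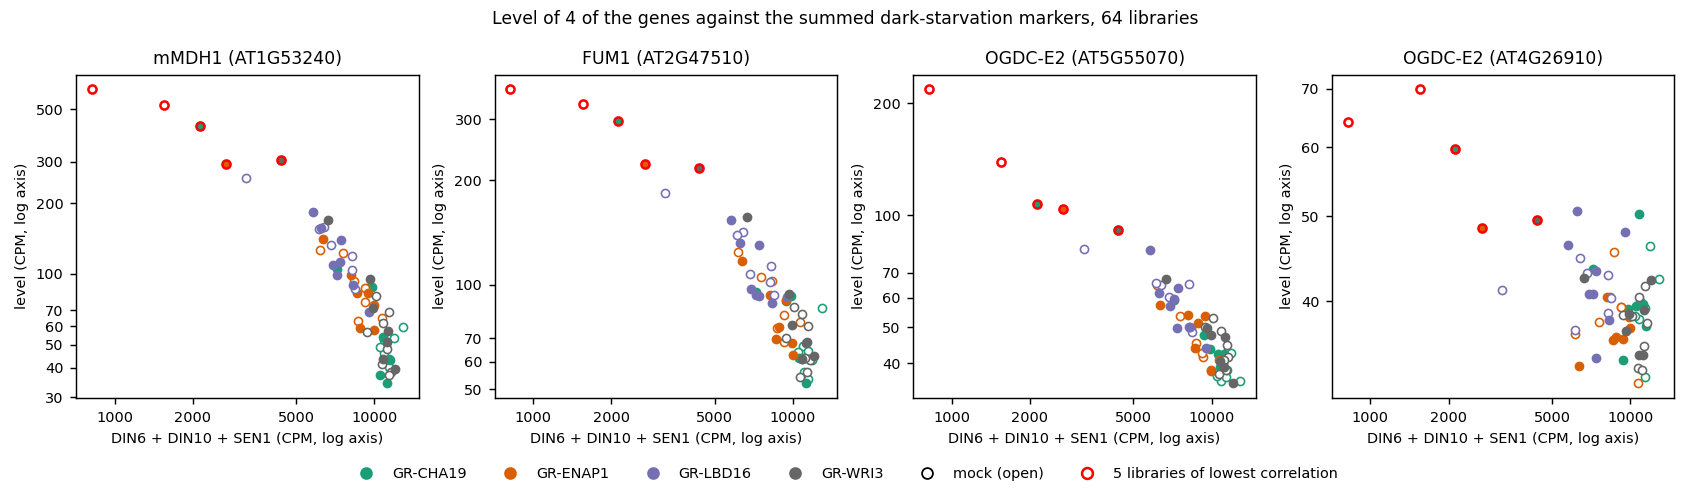
Level of mMDH1, FUM1 and both E2 genes against the summed level of DIN6, DIN10 and SEN1, both in CPM on log axes, for 64 libraries coloured by GR fusion with open points for mock and red edges for the 5 libraries of lowest correlation. mMDH1, FUM1 and AT5G55070 fall steadily along the axis, while AT4G26910 lies between 48.5 and 69.9 CPM in the 5 libraries and is scattered between 32.2 and 50.75 CPM in the other 59.

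The genes varied together, apart from AT4G26910. Over the 45 pairs of genes, centred within fusions, the median correlation of log2 levels was 0.84 (from 0.346 to 0.968) over 64 libraries and 0.567 over 59, with FUM1 and mMDH1 the closest pair. Leaving AT4G26910 aside, the pairs had a median of 0.87 over 64 libraries and 0.641 (0.259 to 0.901) over 59. AT4G26910 had a median of 0.508 with the other genes over 64 libraries and -0.096 over 59 once the 5 were set aside.

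The 5 genes whose levels were most like the mean of the 10, of 12283 compared and centred in the same way, were AT3G03960 of the TCP-1/cpn60 chaperonin family (r = 0.981 over 64 libraries and 0.93 over 59), AT5G60390 of the elongation factor Tu family (0.979 and 0.917), AT5G08690 of the ATP synthase alpha/beta family (0.979 and 0.929), the mitochondrial phosphate transporter gene PHT3;1 (AT5G14040, 0.978 and 0.934) and AT3G51800, known as EBP1 (0.977 and 0.904). AT5G60390 and AT5G08690 belong to families with near-identical copies, so their counts are uncertain. The likeness is not particular to these, since 557 genes had a correlation above 0.9 and 1053 one below -0.9.

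Of 36 other TCA cycle genes, 31 to 33 passed the filter on low counts. In the mock comparison among fusions 5 of 32 passed, against 38.4% of all genes, among them SDH2-3 (AT5G65165, a succinate dehydrogenase iron-sulfur subunit, adjusted p = 0.000737), c-NAD-MDH2 (AT5G43330, a cytosolic malate dehydrogenase, 0.00355) and the peroxisomal citrate synthase gene CSY2 (AT3G58750, 0.00451), all by edgeR. In each other comparison edgeR called 0 of them, with 0 to 10 at an unadjusted p under 0.05. Their Dex fold changes were positive for 25 of 31 genes in GR-CHA19 and 24 of 31 in GR-WRI3, and negative for 27 of 32 under GR-ENAP1 and 25 of 32 under GR-LBD16, with medians of 0.137, 0.079, -0.065 and -0.143 in that order.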

How the data were processed

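The authors deposited raw read counts per gene, 1 table per GR fusion, with a column for each of 2 sequencing runs of a library. Per the labels and methods, single-end reads of 100 bases from libraries that do not keep strand were checked with FastQC 0.11.7, trimmed with Trim Galore 0.6.0 and aligned to TAIR10 with STAR 2.7.0f. The runs were summed here into 64 libraries of 2059928 to 7968970 counts, and CPM were computed from these sums.

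Groups followed the labels. The counts were tested with the robust quasi-likelihood test of edgeR 4.0.16 in R 4.3.3 (filterByExpr, TMM factors, a mean per line and treatment, the Dex effect averaged over lines, Benjamini-Hochberg adjustment over all genes tested, threshold 0.05). For the mock comparison the replicates of a line were summed. The scripts were tested on simulated data. Alternatives were DESeq2 1.42.0, glm.nb of MASS 7.3.60.0.1, other scaling, no filter, a replicate block and left-out libraries. The alternative without the 5 lowest-correlation libraries was chosen after the data were seen. The main fit and glm.nb kept all 16 libraries of GR-CHA19, including the 1 that the study left out.

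All 10 genes are named. Of 36 other TCA genes, up to 3 per comparison with the lowest p were named where they passed, and of genes most like the 10, the 5 with the highest correlation and a mean of at least 10 CPM. Marker lists are given as sums without a test. The genes, lists and tests were chosen with earlier results of these data known. Positions and upstream sequences come from RefSeq TAIR10.1, where all 10 loci matched.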

Additional observations from a re-analysis of the deposited data

Results flagged for a closer look

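In 80 groups, each 1 gene in the 8 libraries of 1 GR fusion and treatment, the highest and the lowest value were set against the others, and 38 of the groups had a high value far from the rest. Chance gives about 1 such group in 20, but the groups are not independent, since 36 of the 38 values come from the 5 lowest-correlation libraries. Those libraries were picked for low correlation over all genes, so that rate is no background for this count. How often other genes gave such values in the same libraries was not counted.

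In GR-CHA19 line 7 Dex replicate 1 these were AT3G55410 at 195 CPM, AT5G55070 at 107 CPM, SCS-a1 at 88.7 CPM, SCS-a2 at 39.3 CPM, SCS-B at 171 CPM, FUM1 at 297 CPM, mMDH1 at 425 CPM and mMDH2 at 43.0 CPM. AT5G65750 and AT4G26910 were not among them. In GR-ENAP1 line 1 mock replicate 1 all 10 genes stood out, with AT3G55410 at 255 CPM, AT5G65750 at 92.3 CPM, AT5G55070 at 139 CPM, AT4G26910 at 69.9 CPM, SCS-a1 at 111 CPM, SCS-a2 at 53.5 CPM, SCS-B at 188 CPM, FUM1 at 331 CPM, mMDH1 at 524 CPM and mMDH2 at 61.9 CPM. In GR-ENAP1 line 2 Dex replicate 1 they were AT5G65750 at 93.1 CPM, AT5G55070 at 104 CPM, AT4G26910 at 48.5 CPM, SCS-a1 at 73.2 CPM, SCS-a2 at 28.1 CPM, SCS-B at 127 CPM, FUM1 at 223 CPM and mMDH1 at 293 CPM. In GR-LBD16 line 3 mock replicate 1 they were AT3G55410 at 291 CPM, AT5G65750 at 309 CPM, AT5G55070 at 218 CPM, AT4G26910 at 64.1 CPM, SCS-a2 at 67.4 CPM, SCS-B at 231 CPM, FUM1 at 366 CPM, mMDH1 at 608 CPM and mMDH2 at 89.9 CPM. In GR-WRI3 line 8 Dex replicate 1 AT5G65750 stood out at 67.6 CPM. The remaining values were FUM1 at 85.4 CPM in GR-CHA19 line 9 mock replicate 2 and SCS-a2 at 25.4 CPM in GR-LBD16 line 12 Dex replicate 1.

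For 3 genes every line of one GR fusion moved one way with Dex and every line of another the opposite way. The log2 fold change of FUM1 in GR-CHA19 minus that in GR-LBD16 was 0.89. GR-LBD16 minus GR-WRI3 was -0.60 for AT3G55410, -0.86 for FUM1 and -1.31 for mMDH1. These pairwise differences were not tested, and the edgeR test over all 4 fusions did not pass for any of the 3 genes (adjusted p between 0.293 and 0.303). How many of all genes had such a pattern was not counted. GR-LBD16 line 3, with its low-correlation mock library, was at -1.1 for AT3G55410, -1.28 for FUM1 and -2.07 for mMDH1. The other GR-LBD16 lines lay between -0.31 and -0.05 for these genes.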

How the results depend on the processing

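Of the Dex fold changes, 40 values were computed under 24 alternatives each, and 881 of 960 kept their sign and their side of the threshold, 45 passed it and 34 changed sign. Counts of genes called for Dex were 8 in GR-CHA19, 3 in GR-LBD16 and 6 in GR-WRI3 by glm.nb, 2 in GR-WRI3 without the filter, and 0 to 8, 0 to 0, 0 to 9 and 0 to 9 in GR-CHA19, GR-ENAP1, GR-LBD16 and GR-WRI3 with each library left out in turn. Where 1 library was left out, the other replicate was assumed to vary like the remaining groups. For differences among lines the counts were 0 to 7, 0 to 8, 0 to 9 and 0 to 9 with each library left out, and 1, 1, 4 and 4 without the 5 lowest-correlation libraries. They were 3 in GR-CHA19, 1 in GR-LBD16 and 2 in GR-WRI3 without the 9 libraries that stood apart, and in GR-WRI3 2 with DESeq2 and 6 without the filter. For the interaction they were 0 to 8, 0 to 9, 0 to 9 and 0 to 2 with each library left out, 1 in GR-CHA19 without the 9 libraries and 1 in GR-WRI3 without the filter. Mock calls were 5 without the filter, 8 with DESeq2 and 9 with library size alone. Shares of all genes called are given above for glm.nb, for the largest left-out counts and for the fits without the 5 libraries. For the other settings they are not given, so those counts show only how the calls of the 10 genes moved. Not every same-numbered pair of replicates deviated together: correlations ran from -0.557 to 0.768 with medians of -0.042 to 0.115, and were above 0.1 in 2, 15, 7 and 4 of 28 pairs of groups in GR-CHA19, GR-ENAP1, GR-LBD16 and GR-WRI3. Pairing was therefore not assumed, and a replicate block took the GR-WRI3 line count to 0 (mMDH1 adjusted p = 0.0629) and changed no other call of the 10 genes.

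Signs turned without the 5 libraries in GR-ENAP1 for mMDH1 (0.0488), SCS-B (0.0024), SCS-a1 (0.0435) and AT5G55070 (0.0542) and in GR-LBD16 for mMDH2 (0.0661) and AT4G26910 (0.0481). Without the 9 they turned for mMDH2 in GR-CHA19 (-0.0751), GR-LBD16 (0.1434) and GR-WRI3 (-0.0009), SCS-B in GR-ENAP1 (0.0259) and GR-LBD16 (0.0133), SCS-a1 (0.0013) and AT5G55070 (0.0773) in GR-ENAP1, and AT4G26910 in GR-LBD16 (0.0256). In GR-ENAP1 this removes both Dex libraries of line 2, so that line was not in the fit. With each library left out, AT4G26910 in GR-CHA19 ran from -0.0201 to 0.1024. In GR-ENAP1 mMDH1 ran from -0.4999 to 0.1786, SCS-B from -0.2593 to 0.05, FUM1 from -0.3889 to 0.0579, mMDH2 from -0.6206 to 0.0494, AT3G55410 from -0.3454 to 0.0608, SCS-a1 from -0.3263 to 0.1068, AT5G55070 from -0.2108 to 0.1561 and AT5G65750 from -0.1735 to 0.0621. In GR-LBD16 mMDH2 ran from -0.7056 to 0.0661 and AT4G26910 from -0.0602 to 0.0481. The cause was not tested. Depth limits mMDH2 most, with 15 to 560 counts per library.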
